A study of Mus musculus with 6 samples.

Results

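The p53 pathway was followed through 10 genes, Trp53 and 9 of its well-known direct targets, in Sox2-positive neural progenitor cells with and without Ybx1. The members were picked by name as Trp53, Cdkn1a, Mdm2, Bax, Bbc3, Pmaip1, Ccng1, Phlda3, Eda2r and Trp53inp1, and all 10 were found among the 51733 gene symbols of the count tables. Total RNA was sequenced from Sox2-eGFP cells sorted out of neural tubes of mouse embryos at embryonic day 13.5. The paper places its Ybx1-KO mice on a back-crossed C57BL/6 background and lists the Sox2-eGFP reporter under a mixed-strain stock. The background of the sorted embryos themselves is not stated there. The 3 control libraries, named A, B and C here, carry the label wildtype and came from siblings, and the 3 Ybx1-KO libraries, named D, E and F, carry the label YBX1KO and came from embryos homozygous for the Ybx1 tm1Ley allele. Cells of both groups carried the Sox2-eGFP reporter allele that was used for the sort, and the labels list no drug or irradiation for either group. The allele was carried in the germline and so by every cell of the embryo, and embryos of both sexes were used. The comparison asks whether progenitors without Ybx1, an RNA- and DNA-binding protein with a cold shock domain, carry a transcriptional sign of DNA damage or apoptosis.

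p53 is a transcription factor that is kept scarce by Mdm2, a ubiquitin ligase that marks it for degradation and whose gene is itself switched on by p53. Damage to DNA activates kinases such as Atm and Chek2, which free p53 protein from Mdm2, so that p53 activity is usually read from the mRNA of its targets rather than from its own mRNA. In the embryonic nervous system p53 is known for halting the cell cycle of damaged progenitors and for their death by apoptosis. p53 protein was not measured in these samples.

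The libraries differed in depth and in quality. Between 20841990 and 23883542 read pairs were counted on genes in the controls, against 8483075 in D, 13321952 in E and 4743279 in F, so that 3 counts corresponded to 0.140 to 0.426 CPM, which are counts scaled to 1000000 per library and normalised with TMM factors between 0.727 in E and 1.57 in F. Library F stood apart: 59.5% of its read pairs were assigned to no counted feature, against 30.6% to 46.7% in the other libraries. In F 7.22% were counted on genes, against 18.0% to 24.7%. Before TMM, 1500 receptor genes that are silent in the other libraries took 4258 CPM in F, against 20.9 to 91.2 elsewhere. Ybx1 itself was at 239, 531 and 306 CPM in A, B and C and at 126, 55.3 and 9.66 in D, E and F, a log2 fold change of -2.49 (SE 0.675; adjusted p = 0.301 by the quasi-likelihood test of edgeR). Among the Ybx1-KO libraries D kept the highest level, closest to that of control A, and whether its reads came from the deleted part of the gene was not tested. The titles of A and B hold a common number, and so do those of D and E. What this number marks, and whether embryos of a group were from separate litters, is not given, so all p-values below measure the spread between these samples.

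Of the 10 genes, 8 passed the expression filter, a mean FPKM above 1 in either group, and none of them passed the test. FPKM are counts per 1000000 counts on all genes, without the TMM factor, divided by the exon length in kilobases. Trp53 and Bbc3 had the higher fitted differences and Ccng1 and Cdkn1a the lower ones, but every 95% interval included 0. Across the 21330 genes that passed the filter edgeR called 0 (0%), and 2393 genes had an unadjusted p below 0.05. limma-voom also called 0 genes, with 1655 below 0.05 before adjustment. DESeq2 called 214 genes (1.00%) and edgeR without the expression filter called 193 of 42828 (0.451%), and none of these calls was a member. The lowest adjusted p of a member was 0.450 in edgeR, 0.613 in limma-voom and 0.294 in DESeq2.

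**Figure D1:**
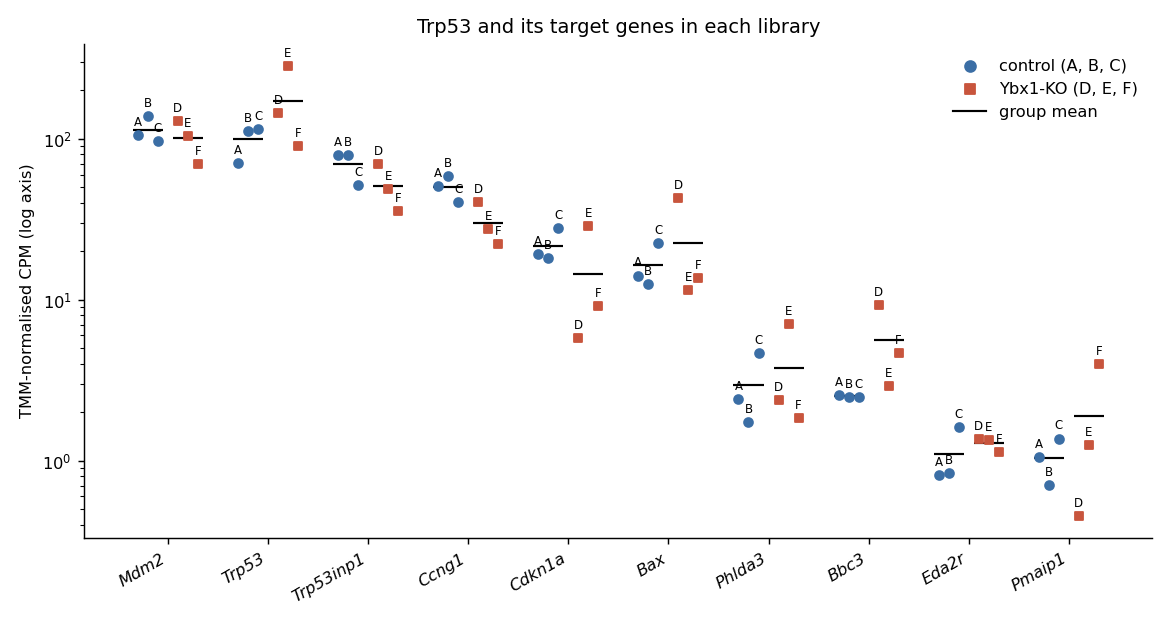
TMM-normalised CPM on a log axis for the 10 genes in control libraries A, B and C (circles) and in D, E and F, the Ybx1-KO libraries (squares), with a line at each group mean. Bbc3 is the gene whose 3 Ybx1-KO points all lie above its controls, at 2.91 to 9.30 against 2.48 to 2.54 CPM, and Ccng1 the gene whose 3 points all lie below, at 22.2 to 40.6 against 40.7 to 58.4 CPM.

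Promoter sequences are shown for Ccng1 and Cdkn1a, as these are the members whose RefSeq promoters held a p53 site. RefSeq windows (GRCm38.p6), each of 250 bases before to 50 bases after a transcription start, were matched by symbol for 8 of the 10 genes, which had 11 promoters between them, and those of Pmaip1 and Trp53inp1 were not matched. The p53 response element of 20 bases, searched on both strands with at most 1 departure from the consensus and with the C and G of both cores intact, was present in 22 of 32851 RefSeq promoters (0.067%), among them 1 promoter of Ccng1 and 1 of Cdkn1a. The Y box CTGATTGG, the element after which Ybx1 was named, was searched on both strands and was present in 1346 promoters (4.1%), and Ccng1 was the member that held it. The Y box contains CCAAT read on the other strand, and CCAAT on either strand was present in 37.4% of all promoters and in those of 5 members. The stretches before the start lie at chr11:40755312-40755536 on the minus strand (Ccng1, 225 bases) and chr17:29090729-29090975 on the plus strand (Cdkn1a, 247 bases). They are written 5′ to 3′, with the p53 site and, in Ccng1, the Y box in capitals.
Ccng1: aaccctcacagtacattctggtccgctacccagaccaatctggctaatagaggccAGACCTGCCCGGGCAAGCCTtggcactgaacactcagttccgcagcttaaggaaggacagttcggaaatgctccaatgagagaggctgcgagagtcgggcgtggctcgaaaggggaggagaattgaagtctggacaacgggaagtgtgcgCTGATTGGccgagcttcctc
Cdkn1a: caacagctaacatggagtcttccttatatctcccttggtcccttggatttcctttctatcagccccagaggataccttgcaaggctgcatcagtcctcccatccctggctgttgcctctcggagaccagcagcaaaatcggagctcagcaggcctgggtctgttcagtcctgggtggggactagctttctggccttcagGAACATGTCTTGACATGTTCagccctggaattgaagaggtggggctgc
The p53 site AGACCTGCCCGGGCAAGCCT of Ccng1 ended 176 bases before the RefSeq start and the printed Y box 38 bases before it, while a further Y box, not printed, lay after the start, and the p53 site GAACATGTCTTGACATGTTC of Cdkn1a ended 32 bases before the start. For Cdkn1a this is the start of the upstream promoter. Its other RefSeq promoter, at chr17:29093519-29093818, held no p53 site. All of these sites are matches of letters, and binding was not measured here.

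Levels were compared between genes as FPKM, which correct for exon length and for the total count on genes. In the controls Trp53 stood at 22.8 ± 4.52 FPKM (SD, n = 3) and Mdm2 at 20.9 ± 3.52, within each other's spread. Ccng1 at 13.3 ± 2.37, Trp53inp1 at 10.2 ± 2.55 and Bax at 9.74 ± 3.07 FPKM formed a middle group whose neighbours were likewise within their spread, followed by Cdkn1a at 5.70 ± 1.31. Phlda3 (1.76 ± 0.891 FPKM) and Bbc3 (1.10 ± 0.0819) were within their spread of each other, and Pmaip1 (0.358 ± 0.117) and Eda2r (0.173 ± 0.0687) were lowest. The arrest genes Ccng1 and Cdkn1a and the feedback gene Mdm2 were thus expressed in control progenitors at levels well above those of Bbc3 and Pmaip1, which encode killer proteins of the BH3-only class. In the Ybx1-KO libraries Trp53 was at 40.2 ± 9.09 FPKM, Mdm2 at 20.5 ± 5.71, Bax at 15.5 ± 11.7 and Cdkn1a at 3.77 ± 2.06. Pmaip1 and Eda2r stayed under 1 FPKM on average in both groups.

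Trp53, which encodes p53 itself (chr11:69580359-69591873, plus strand, GRCm38), was at 71.3, 112 and 115 CPM in A, B and C and at 144, 282 and 90.2 CPM in D, E and F. E held the highest level and F lay between control A and controls B and C, so that the groups overlapped. The group means were 99.5 ± 24.5 and 172 ± 99.0 CPM (SD, n = 3), and the fitted log2 fold change of 0.79 (SE 0.461, 95% interval -0.18 to 1.77; adjusted p = 0.464 in edgeR) was smaller than the spread between libraries could resolve. The groups were parted by other settings, chosen after seeing the data. Without F both remaining Ybx1-KO libraries lay above the controls, and with scaling by total counts all 3 did, at 141 to 205 against 72.2 to 106 CPM. In CPM this scaling divides by the counts on the genes that passed the filter, without TMM factors. Without F the log2 fold change was 1.07 and the adjusted p 0.313 in edgeR, and without E the log2 fold change was 0.23. The table lists Trp53-ps, a pseudogene of Trp53, at 0 in all 6 libraries. In bulk RNA of this kind fewer cells of a type and less RNA per cell cannot be told apart.

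Mdm2, the ubiquitin ligase of the feedback loop (chr10:117688875-117710758, minus strand), was at 106, 139 and 96.9 CPM in the controls and at 129, 105 and 70.0 CPM in D, E and F. D and E lay within the control range and F below it. The log2 fold change was -0.17 (SE 0.397; adjusted p = 0.850 in edgeR), with an interval from 0.496-fold to 1.59-fold. Library E, with the highest Trp53 level of all, thus had an Mdm2 level inside that of the controls with TMM. With scaling by total counts E lay below the controls, at 76.0 against 89.1 to 125 CPM. D was then above them at 134 CPM and F within them at 110 CPM.

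Cdkn1a encodes p21, the inhibitor of cyclin-dependent kinases through which p53 halts the cell cycle (chr17:29090976-29100727, plus strand). It was at 19.2, 18.1 and 27.8 CPM in A, B and C and at 5.78, 28.6 and 9.09 CPM in D, E and F. With TMM, D and F were below every control and E was above every control, so the Ybx1-KO libraries spanned the whole range. The 95% Poisson interval of the counts in E, 25.3 to 32.1 CPM, included control C. With scaling by total counts E lay within the controls, at 20.8 against 16.3 to 25.5 CPM. D and F stayed below them, at 6.04 and 14.3 CPM. The means were 21.7 ± 5.29 and 14.5 ± 12.3 CPM, with a log2 fold change of -0.58 (SE 0.525, 95% interval -1.69 to 0.53; adjusted p = 0.607 in edgeR). The level of Cdkn1a in D rests on 51 counts. Its exons share 273 bases with a gene on the opposite strand, AC167363.2, which is not among the rows of the tables.

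Ccng1, the gene of cyclin G1, a p53 target that takes part in the cell cycle and in the control of Mdm2 (chr11:40748552-40755311, minus strand), was at 50.7, 58.4 and 40.7 CPM in the controls. In D, E and F it was at 40.6, 27.5 and 22.2 CPM. Every Ybx1-KO library was below every control, though D and C were nearly level. The means were 49.9 ± 8.88 and 30.1 ± 9.48 CPM (SD, n = 3), the log2 fold change was -0.73 (SE 0.380, 95% interval -1.53 to 0.07), the adjusted p in edgeR was 0.450 and the exact permutation p was 0.1, two-sided, which is the smallest that 3 against 3 can give. The same complete separation downward was found for 8.16% of all genes tested. It did not hold with scaling by total counts, at 37.4 to 52.7 CPM in the controls against 20.0 to 42.4 CPM, nor with DESeq2's size factors.

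The apoptotic members were led by Bbc3 and Bax. Bbc3 encodes Puma, a BH3-only protein through which p53 triggers apoptosis (chr7:16308393-16318205, plus strand). It was at 2.54, 2.48 and 2.49 CPM in the controls and at 9.30, 2.91 and 4.69 CPM in D, E and F. The controls were nearly equal and the 3 Ybx1-KO libraries all exceeded them, with D far out and E only just above. These levels rest on 49 to 53 counts in the controls and on 82, 28 and 33 in D, E and F, and the 95% Poisson interval of the counts in E reached from 1.93 to 4.20 CPM and so included the control levels. The log2 fold change was 1.17 (SE 0.849, 95% interval -0.63 to 2.96; adjusted p = 0.526 in edgeR), with an exact permutation p of 0.1, two-sided, and without D it was 0.60. Complete separation upward was found for 4.99% of all genes tested. With scaling by total counts E was below the controls, at 2.11 CPM against 2.24 to 2.57, and the separation was lost, while it held with DESeq2's size factors.

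Bax, the pore-forming protein of the outer mitochondrial membrane (chr7:45461697-45466898, minus strand), was at 14.2, 12.5 and 22.7 CPM in the controls and at 42.9, 11.4 and 13.6 CPM in the Ybx1-KO libraries. D held the highest level of all, whereas E was the lowest of the 6 and F lay between the controls. With scaling by total counts F was just above the controls, at 21.4 against 11.3 to 20.8 CPM. In FPKM, which use the counts on all genes, F lay within the controls, at 12.8 against 7.12 to 13.1. The log2 fold change of 0.46 (SE 0.503; adjusted p = 0.670 in edgeR) had a 95% interval from 0.659-fold to 2.88-fold, and without D it was -0.39. The exons of Bax share 192 bases with Gm45808 on the same strand, which the tables list at 0 in every library.

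Trp53inp1, a stress protein that helps p53 toward its apoptotic targets (chr4:11156431-11174379, plus strand), was at 79.1, 79.8 and 52.0 CPM in A, B and C and at 69.4, 48.9 and 35.5 CPM in D, E and F. E and F were below the controls and D was within them. With scaling by total counts F was within the controls too, at 55.7 against 47.8 to 80.1 CPM. The log2 fold change was -0.45 (SE 0.390; adjusted p = 0.585 in edgeR). Phlda3, a repressor of Akt signalling (chr1:135766119-135769136, plus strand), was at 2.40, 1.73 and 4.67 CPM in the controls and at 2.38, 7.06 and 1.85 CPM in D, E and F. E was highest and D and F were within the control range, for a log2 fold change of 0.36 (SE 0.974; adjusted p = 0.876 in edgeR) that was -0.47 without E.

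Pmaip1 and Eda2r were too low for the test. Pmaip1 encodes Noxa, another BH3-only protein, and had 22, 15 and 27 counts in the controls and 4, 12 and 28 in D, E and F. This corresponded to 1.06, 0.702 and 1.37 CPM in the controls against 0.454, 1.25 and 3.98 CPM, with the lowest and the highest level both among the Ybx1-KO libraries. The highest, in F, equalled 2.16 FPKM, where the silent receptor genes averaged 0.773 FPKM in that library and 0.0038 to 0.0166 FPKM in the others. Their part in the Pmaip1 counts of F was not tested. Eda2r, a death-domain receptor of the TNF receptor family (chrX:97333840-97377216, minus strand), had 17, 18 and 32 counts in the controls and 12, 13 and 8 in D, E and F, or 0.815 to 1.63 CPM against 1.14 to 1.36 CPM. Its 0.286 FPKM in F was below the receptor average of that library. Without the filter the fitted log2 fold changes were 0.58 for Pmaip1 (SE 1.62; adjusted p = 0.905 in edgeR) and 0.11 for Eda2r (SE 1.72; adjusted p = 0.988 in edgeR).

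**Figure D2:**
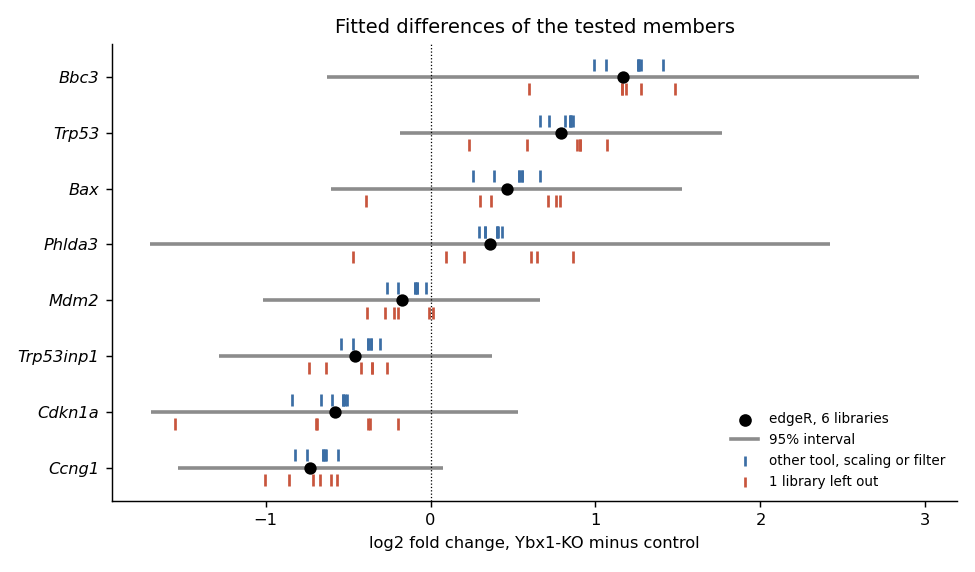
Fitted log2 fold changes, Ybx1-KO minus control, of the 8 tested genes (dots) with their 95% intervals (grey lines), and the values under another tool, scaling or filter (upper ticks) or with 1 library left out (lower ticks). Every interval crosses 0, and lower ticks cross 0 for Bax, Phlda3 and Mdm2.

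Among the 7 tested targets 3 had a fold change above 0 and 4 below, with a median log2 fold change of -0.17, whereas over all tested genes 61.3% were above 0 and the median was 0.31. One target, Bbc3, was completely separated upward and 1, Ccng1, downward. Without F the counts were 4 above and 3 below and the median was 0.02, whereas 40.1% of all genes were then above 0 and their median was -0.07, so that the median of the targets lay below that of all genes with F and above it without F. With Trp53 included, leaving out F, a count added after seeing the data, separated 2 members upward, against 10.3% of all genes, and 1 downward, against 14.6%. With scaling by total counts 1 member, Trp53, was separated upward, against 6.00% of all genes, and none downward, against 4.83%.

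The 3 Ybx1-KO libraries differed among themselves across the targets. Against the control mean on the log2 scale, D was 1.84 higher in Bbc3 and 1.42 higher in Bax, while its Cdkn1a differed by -1.86. E differed by 1.53 in Trp53 and by 1.34 in Phlda3, and its Cdkn1a was 0.42 higher. F was 1.84 higher in Pmaip1 and 0.87 higher in Bbc3, with -1.22 in Cdkn1a and -1.15 in Ccng1. Each of the 3 was thus farthest above the controls in other genes. The median difference of the 7 tested targets was 0.01 in D, -0.11 in E and -0.68 in F, with 4, 3 and 1 targets above the control mean. Among the tested targets Bbc3 alone had a positive difference and Ccng1 alone a negative difference in all 3, and the untested Eda2r was positive in all 3 as well, at 0.11 to 0.34.

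**Figure D3:**
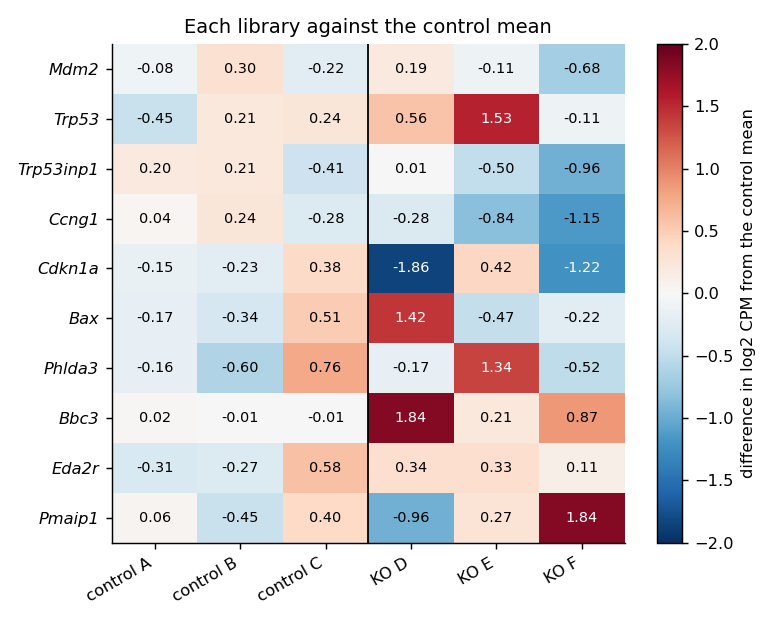
Difference of each library from the control mean in log2 CPM for the 10 genes, with red for higher, blue for lower and the value in each cell. D is red in Bax and Bbc3 and blue in Cdkn1a, E is red in Trp53 and Phlda3, and F is red in Pmaip1 and blue in Cdkn1a and Ccng1.

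The likeness of expression patterns was described with Cdkn1a as the reference, over 6 libraries that share 2 groups and differ in depth. The tested genes with the highest Pearson correlation of log2 CPM with Cdkn1a were Smyd2 (r = 0.996), Zfp346 (0.995), Rab35 (0.993), Grpel2 (0.991) and Orai2 (0.987). Without D and F, the libraries farthest from the median of Cdkn1a, these values were 0.936 to 0.990 over 4 libraries. Over the 6 libraries the members had lower values, from 0.64 for Phlda3 and 0.23 for Trp53 down to -0.59 for Bax and -0.92 for Bbc3, while Mdm2 was at 0.02 and Ccng1 at 0.17. These values rest on D and F. Without them, over 4 libraries, Bbc3 was at 0.58, Bax at 0.33, Trp53 at 0.69, Pmaip1 at 0.87, Eda2r at 0.95 and Phlda3 at 0.97, the latter pair within the range of the genes most like Cdkn1a. Mdm2 was then at -0.75, Ccng1 at -0.89 and Trp53inp1 at -0.99.

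A further 45 p53 targets were counted, of which 39 passed the filter and none passed the test. In 4 of the 39 (Tnfrsf10b, Trp53cor1, Gls2 and Trp53i13) the Ybx1-KO mean alone was above 1 FPKM, so that a difference upward was built into their entry. Of the 39, 24 had a fold change above 0 and 15 below, with a median of 0.34 beside the 0.31 of all genes. At an unadjusted p below 0.05 there were 5 higher and 2 lower, where 6.96% of all genes were higher and 4.26% lower. With TMM all 3 Ybx1-KO libraries exceeded the controls in 5 genes, Sesn2, Gadd45a, Gls2, Pltp and Gtse1, and were below them in 3, Ddb2, Perp and Plk2, beside 4.99% and 8.16% of all genes. In FPKM, which use total counts, Pltp overlapped through E, at 3.57 against 2.76 to 4.42 in the controls. Ddb2 and Perp then overlapped through F, at 8.09 against 5.83 to 9.10 and at 2.92 against 2.06 to 6.91. Sesn2, Gadd45a, Gls2, Gtse1 and Plk2 stayed separated. In FPKM but not with TMM, Plk3 was separated upward, at 8.08 to 9.99 against 2.84 to 6.75. Rap2b (1.04 to 3.09 against 3.29 to 4.22) and Ppm1d (6.24 to 12.2 against 12.6 to 14.2) were likewise separated downward. With TMM and without F, 8 were above and 4 below, beside 10.3% and 14.6%.

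Gadd45a, a damage-inducible gene of growth arrest and DNA repair, was at 5.23, 8.38 and 5.33 CPM in the controls and at 25.5, 11.3 and 8.67 CPM in D, E and F, and F was only just above control B. Gtse1, a protein of the G2 and S phases that restrains p53, was at 8.54, 10.7 and 8.54 CPM in the controls against 18.1, 24.9 and 14.2 CPM. Gls2, a mitochondrial glutaminase, was at 0.515 to 0.864 CPM in the controls against 1.02, 2.60 and 11.1 CPM, with its highest level in F. It passed the filter through F, at 4.73 FPKM where the silent receptor genes averaged 0.773, against 0.305 in D and 0.540 in E, and their part in its counts was not tested. In these genes the Ybx1-KO libraries were all above the controls, and each gene was led by a different library. Rps27l, a ribosomal protein paralogue, reached 128 CPM in D, while E at 21.7 and F at 39.8 CPM were near the controls, which ran from 11.0 to 38.8 CPM. On the lower side, Perp, a membrane protein of p53-dependent cell death and of epithelial junctions, was at 13.5, 4.49 and 13.6 CPM in the controls and at 0, 1.14 and 3.84 CPM in the Ybx1-KO libraries. Plk2, a polo-like kinase, was at 48.5 to 64.4 CPM against 34.4, 31.9 and 15.6 CPM. The adjusted p of these 6 genes was 0.432 to 0.444 in edgeR, with log2 fold changes of 1.26 for Gadd45a, 1.04 for Gtse1, 2.79 for Gls2, 1.29 for Rps27l, -2.68 for Perp and -0.99 for Plk2. Perp was called by edgeR without the expression filter (log2 fold change -2.95; adjusted p = 0.0423), and no other gene of the 10 or of the pathway lists was called in that fit or by DESeq2.

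Among the genes upstream of p53 more fold changes were below 0 than above. Of 28 regulators and damage-signalling genes 27 passed the filter, 7 with a fold change above 0 and 20 below, where 61.3% of all genes were above 0, and the median was -0.25. None passed the test, and 0 were higher and 2 lower at an unadjusted p below 0.05, beside 6.96% and 4.26% of all genes. With TMM the groups were completely separated downward in 4 genes (Trp53bp2, Rfwd2, Rpl5 and Rad50) and upward in 0, beside 8.16% and 4.99% of all genes. In FPKM, which use total counts, most of these separations were lost. F lay within the controls in Trp53bp2 (16.8 against 11.8 to 17.5), Rfwd2 (6.74 against 6.28 to 10.5) and Rad50 (5.96 against 4.38 to 6.61). Rpl5 stayed separated, at 49.5 to 75.6 against 78.0 to 135 FPKM. With scaling by total counts the split was 9 above and 18 below with a median of -0.09, and without F it was 10 and 17 with a median of -0.24, where 40.1% of all genes were above 0. Rfwd2, the older symbol of the p53 ubiquitin ligase Cop1, was at 183, 144 and 121 CPM in the controls and at 50.6, 91.8 and 79.6 CPM in D, E and F (log2 fold change -1.01, SE 0.404; adjusted p = 0.439 in edgeR). Rpl5, a ribosomal protein that binds Mdm2 when ribosome assembly fails, was at 526, 342 and 581 CPM against 223, 269 and 200 CPM (log2 fold change -1.07, SE 0.450; adjusted p = 0.444 in edgeR). Rad50, a protein of the break-sensing MRN complex, was at 25.8 to 35.5 CPM against 13.9 to 21.6 CPM. Ppp1r13b, whose product Aspp1 steers p53 toward apoptotic targets, was at 16.0 to 24.4 CPM in the controls and at 4.76, 20.0 and 6.39 CPM, overlapping through E. In FPKM Ppp1r13b was separated downward, at 1.00 to 2.93 against 3.24 to 4.49. H2afx, the histone variant that is phosphorylated at breaks, ran from 77.2 to 195 CPM against 140 to 362 CPM.

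The damage kinases and the second inhibitor of p53 showed no separation. Mdm4, which masks p53's activation domain, was at 216, 182 and 89.6 CPM in the controls and at 109, 137 and 114 CPM in D, E and F. Atm was at 35.5 to 65.8 CPM against 21.4 to 43.5 CPM, and Chek1 at 11.5 to 24.9 CPM against 15.2 to 37.3 CPM. The levels of all of them overlapped between the groups. Chek2 was at 3.17, 3.70 and 2.39 CPM in the controls and at 8.28, 3.32 and 8.38 CPM in D, E and F, where E lay within the controls and the Ybx1-KO mean alone was above 1 FPKM (log2 fold change 1.11, SE 0.758; adjusted p = 0.509 in edgeR). Cdkn2a, whose Arf product blocks Mdm2 under oncogenic stress, had no count in A, B, C and D and was at 0.104 CPM in E and 1.56 CPM in F.

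The general apoptosis machinery held 29 genes, of which 26 passed the filter and none passed the test. Of these 8 had a fold change above 0 and 18 below, beside 61.3% of all genes above 0, and the median was -0.12. At an unadjusted p below 0.05 there were 1 higher and 2 lower, beside 6.96% and 4.26% of all genes. This split depended on the scaling, with 15 above and 11 below and a median of 0.05 by total counts and with 13 above and 13 below by DESeq2's size factors, while it was again 8 and 18 without F, where 40.1% of all genes were above 0. The groups were completely separated upward in 1 gene, Bak1, and downward in 5, among them Bcl2, Bok, Xiap and Aifm1, beside 4.99% and 8.16% of all genes. Bak1, the pore-forming partner of Bax, was at 12.5, 13.0 and 15.7 CPM in the controls and at 50.8, 32.3 and 18.5 CPM in D, E and F (log2 fold change 1.30, SE 0.426; adjusted p = 0.401 in edgeR). Its counterweight Bcl2, an inhibitor of Bax and Bak1, was at 41.0, 32.0 and 41.9 CPM against 17.6, 23.9 and 19.7 CPM (log2 fold change -0.91, SE 0.368; adjusted p = 0.443 in edgeR).

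Xiap, an inhibitor of apoptosis, was at 39.0 to 54.3 CPM in the controls against 18.9 to 30.2 CPM in the Ybx1-KO libraries. Bok, a relative of Bax, was at 7.96 to 18.0 CPM against 5.26 to 7.03 CPM, and Aifm1, a mitochondrial flavoprotein released in cell death, at 21.2 to 27.5 CPM against 14.8 to 17.5 CPM. Both killer and survival genes were thus among those separated downward with TMM. In FPKM, which use total counts, F lay within the controls in Bcl2, at 3.20 against 3.12 to 4.48. The same held for Bok (4.24 against 3.87 to 8.94) and Aifm1 (6.42 against 4.84 to 6.70). Xiap stayed separated, at 2.31 to 3.12 against 3.76 to 5.13 FPKM. Bak1 stayed separated upward, at 9.70 to 21.9 against 4.84 to 5.95 FPKM. Casp9, the initiator caspase of the mitochondrial route, was at 16.4 to 17.1 CPM in the controls and at 34.6, 16.8 and 10.8 CPM in D, E and F. The survival genes Bcl2l1 (35.6 to 58.6 against 126, 61.3 and 31.5 CPM) and Mcl1 (141 to 186 against 232, 158 and 112 CPM) overlapped as well, with D highest in each. Library D was thus highest of the 6 in Bax, Bbc3, Bak1, Casp9, Bcl2l1 and Mcl1, genes of either side of apoptosis.

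**Figure D4:**
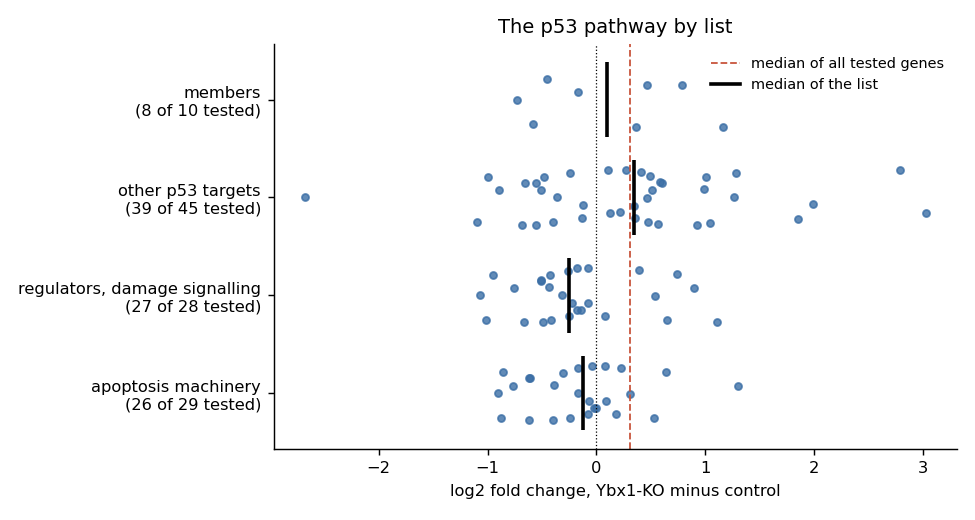
Log2 fold changes, Ybx1-KO minus control, of each tested gene (dots) in the 10 genes and in the 3 further lists, with the median of each list (black bar) and of all tested genes (dashed line, 0.31). The median of the further p53 targets, 0.34, lies at the dashed line, and those of the regulators, -0.25, and of the apoptosis machinery, -0.12 (0.05 with scaling by total counts), lie to its left.

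Markers of the cells that the sort could hold were summed for each library. The 10 neural progenitor markers added up to 1660 to 1851 CPM in the controls and to 2412, 2217 and 1375 CPM in D, E and F, and the 12 neuron markers to 3386 to 5480 CPM against 4635, 3889 and 1876 CPM. With TMM, F had the lowest Ccng1, Trp53inp1 and Mdm2 of all 6 libraries and the lowest sums of both. With scaling by total counts E was the lowest in these genes, at 20.0, 35.6 and 76.0 CPM. F was then at 34.8, 55.7 and 110 CPM. The marker sums were taken with TMM alone, where F had the highest factor, 1.57. The 10 erythroid markers added up to 525 to 1228 CPM against 1245, 513 and 214 CPM, and the 9 mesenchyme markers to 939 CPM in A and at most 242 CPM in B and C against 153, 165 and 97.9 CPM. Within these sums 5 of the 10 progenitor markers were higher at an unadjusted p below 0.05, beside 6.96% of all genes. Nes and Hes5 were completely separated upward, beside 4.99%. Of the 12 neuron markers 4 had a fold change above 0 and 8 below, with 2 completely separated downward, beside 8.16%. All 9 mesenchyme markers had a fold change below 0, where 61.3% of all genes were above 0. Of these 9, 5 were lower at an unadjusted p below 0.05, beside 4.26% of all genes. Without F, 2 of the 9 were above 0 and 7 below, where 40.1% of all genes were above 0. Among the progenitor and mesenchyme markers edgeR called none, while DESeq2 called Nes, Dcn and Lum, and edgeR without the filter called Dcn, Lum, Col1a1 and Col3a1. The erythroid markers went both ways, with 5 above 0 and 5 below. Hbb-bs was at 603, 16.3 and 191 CPM against 20.3, 6.33 and 4.97 CPM (log2 fold change -4.67; adjusted p = 0.167 in edgeR), while Hbb-bh1 was at 2.21. Without the filter edgeR called Hbb-bs and Hbb-bt, both lower, and Hbb-bh1, higher. The 6 endothelial markers were at 20.5 to 50.5 CPM against 13.3, 14.0 and 47.2 CPM (Emcn at 0 in E), and the 7 microglia markers at 10.7 to 40.6 CPM against 3.63, 5.82 and 38.5 CPM, with Aif1, C1qa and C1qb at 0 in D and C1qb and Ptprc at 0 in E. The part of these cells in the differences between libraries was not tested.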

How the data were processed

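Read pairs per gene were counted by the authors with HTSeq 0.6.1p1 and deposited as counts, 1 table per library; per the labels CASAVA, mm10 and GRCm38.p5 were also used, and the aligner settings and strand option are not given in the sources used here. The kit, TruSeq Stranded Total RNA, keeps strand. Rows that name no gene were left out of all library sizes. Counts were scaled by TMM and tested with edgeR 4.0.16 (quasi-likelihood, Benjamini-Hochberg, adjusted p below 0.05 and fold change above 1.5) in R 4.3.3 over genes above 1 FPKM in either group mean, and limma 3.58.1 (voom) and DESeq2 1.42.0 served as alternatives. FPKM were computed from the total counts on all genes and GENCODE exon lengths on GRCm38, and log2 CPM with a prior count of 2. CPM with scaling by total counts used the counts on the genes that passed the filter, without TMM factors. The fits with that scaling used the total counts on all genes. Single genes were compared with an exact two-sided permutation test, and 95% Poisson intervals cover counting error only. The 10 genes and the lists were chosen with earlier results of these data known. Named beside them were up to 6 tested genes per list with the smallest unadjusted p, 10 fixed regulators and apoptosis genes, and the 5 genes most like Cdkn1a. The names of genes completely separated, and their comparison in FPKM, were chosen after their values were seen. The values of 1 gene of the apoptosis list are not reported here. No GEO sample was left out.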

Additional observations from a re-analysis of the deposited data

How the results depend on the processing

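No member was called under any of 13 alternatives. Of 104 pairs of a tested member and an alternative, 101 kept their direction, and 3 reversed when 1 library was left out. Mdm2 was at 0.017 on the log2 scale without F (leave-one-out range -0.38 to 0.017), Bax at -0.39 without D (-0.39 to 0.78) and Phlda3 at -0.47 without E (-0.47 to 0.87). Trp53 was at 0.23 without E and 1.07 without F, Bbc3 at 0.60 without D, and Cdkn1a at -0.20 without D and -1.55 without E. The number of genes called was 0 in edgeR with TMM, total-count and DESeq2-size-factor scaling and in limma-voom, 214 in DESeq2 and 193 without the filter. With 1 library left out it ran from 0 to 420, with 71 without control B, 107 without D, 420 without E and 46 without F. The median of the 39 further targets was 0.18 in limma-voom, 0.52 with total-count scaling and 0.14 without the filter, and 0.16 to 0.31 with 1 library left out. Over the same alternatives the median of all genes shifted by -0.16, 0.20 and 0.39 from its 0.31, by -0.23 with CPM above 1 in 3 libraries, by -0.16 with protein-coding genes alone and by -0.38 without F. The median of the apoptosis machinery, -0.12, was 0.05 with total-count scaling. Of the tested members 2 were completely separated with TMM (Bbc3 and Ccng1), 1 with total counts (Trp53), 1 with DESeq2's size factors (Bbc3) and 3 without F. The cause of these shifts was not tested. Depth limits the low genes most, as 3 counts are 0.426 CPM in F, and with a common biological coefficient of variation of 0.800 the 95% interval of Bbc3 spans 0.647-fold to 7.79-fold.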
